A study of Mus musculus with 12 samples.

Results

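The comparison described here is HFD against chow in TET2 KO mice, in RNA of lung cells selected for CD31, 3 libraries on each diet, which are 6 of the 12 libraries of the study. Its members are all genes in the authors' table for this pair of groups, 1628 genes of the 9338 listed in any of the 4 pairwise tables of the study. A gene was listed where the authors' DESeq2 test gave an unadjusted p-value under 0.05, so every gene below was chosen on the same diet contrast that is described, and its direction and p-value are a description of these libraries. All mice were male, carried TET2fl/fl on a C57Bl/6J background, were given tamoxifen at 40 mg/kg for 3 days when they were 6 to 8 weeks old, and gave cells at 30 weeks. TET2 KO mice also carried Cdh5-CreERT2, a recombinase that tamoxifen activates and that the Cdh5 promoter restricts to endothelial cells. By this design other cell types in the same library would keep their Tet2 genes, which was not checked here. KO chow mice stayed on a standard diet with 13% of its energy from fat, and KO HFD mice were fed a diet with 60% of its energy from fat for 20 weeks. WT mice were Cre-negative TET2fl/fl males given the same tamoxifen and the same diets. Each library came from 1 mouse.

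TET2 is an enzyme that oxidizes methylated cytosine in DNA, the step that starts active demethylation. Long feeding with a diet rich in fat causes obesity and poor control of blood glucose in mice, and the lung is exposed to it through a dense capillary bed, resident alveolar macrophages that clear lipid-rich surfactant, and the fibroblasts and mesothelial cells of its walls and surface. CD31 (Pecam1) is carried by endothelial cells and also by some blood cells, so the magnetic selection enriches endothelial cells without making them pure. In such a bulk library, fewer cells of a type and less RNA per cell cannot be told apart.

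The libraries held 39.6 to 42.7 M counted reads on chow and 38.1 to 41.9 M on HFD. The table did not list Tet2, and neither did those that compare KO with WT on either diet, so the genotype rests on the labels. Of the general endothelial markers only Emcn was listed for this comparison. Others were held for the HFD libraries through the comparison with WT on HFD, and there Cdh5 stood at 158, 82.0 and 84.5 FPKM (fragments scaled by gene length and depth) and Pecam1 at 94.3, 66.6 and 66.6 FPKM in replicates 1, 2 and 3. Lyz2, the lysozyme gene of macrophages and neutrophils, stood at 1950, 3280 and 3060 FPKM in the same libraries and at 4340, 5380 and 3870 FPKM on chow. HFD replicate 1 therefore held the most Cdh5 and the least Lyz2, and on the chow side replicate 3 held the least Lyz2. Macrophage genes were thus plentiful in every library, and their level differed between libraries of 1 diet as well as between the diets.

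The deposited counts of the listed genes were fitted in edgeR with its quasi-likelihood test, and an unadjusted p under 0.05 made a gene called. The fit called 1254 of the 1628 listed genes, 477 higher and 777 lower on HFD, and the remaining 374 had edgeR p-values up to 0.107. Of the 19511 genes that the authors adjusted over, 7.60% were listed (2.94% higher and 4.66% lower) and 5.71% were listed and called (2.13% higher and 3.58% lower). A log2 fold change over 1 was reached by 524 called genes, 217 higher and 307 lower. Of these, 385 were among the genes that the authors adjusted over, 1.97% of the 19511, and the rest were left out of adjustment. The 3 libraries of one diet lay wholly above those of the other for 1182 genes, 72.6% of those listed. After Benjamini-Hochberg adjustment 1 gene, Lgals1, kept an edgeR p under 0.05, and limma-trend also gave 1, while DESeq2 on the listed counts gave 70. Of the 6 edgeR fits without 1 library, 5 gave 0. The next lowest edgeR adjusted p was 0.55, so no other single gene passed adjustment in that fit. Fold changes below carry a standard error (SE) derived from that fit, the absolute log2 fold change divided by the square root of its F statistic. They belong to called genes unless a missing call is stated. The number of calls depended on single mice. Without chow replicate 1 it was 737, without chow replicate 2 599, without HFD replicate 1 705 and without HFD replicate 3 773. The scaling set the balance of directions. With TMM factors computed over the listed genes alone, the log2 fold changes moved up by a median of 0.25. Then 990 genes were called, 636 higher and 354 lower, without a change of sign in any listed gene.

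Among called protein-coding genes without overlap whose higher diet averaged 50 normalized counts or more, the largest decrease was that of Lgals1 (chromosome 15, 78926725 to 78930465, in GRCm38), which encodes galectin-1, a secreted lectin that binds beta-galactosides on glycoproteins. It had 1417, 1663 and 1389 normalized counts on chow and 127, 101 and 181 on HFD. Every chow library stood far above every HFD library, and the change was the most certain of the comparison (log2 fold change -3.45, SE 0.26, edgeR adjusted p = 0.0219). Dropping any 1 library gave fold changes from -3.7 to -3.27 and adjusted p-values from 0.0365 (without HFD replicate 3) to 0.299 (without HFD replicate 1). Lgals1 was not listed for the diet in WT, nor for KO against WT on either diet, so no WT value of it was held. That does not show that it was unchanged there.

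Cyp1a1 (chromosome 9, 57687928 to 57703824), a cytochrome P450 enzyme that the aryl hydrocarbon receptor induces and that lung endothelium can express, had 167, 101 and 75.9 normalized counts on chow and 17.2, 13.3 and 5.28 on HFD (log2 fold change -3.24, SE 0.5). The libraries of the diets did not overlap. Of 14 aryl hydrocarbon receptor target genes in the list, 1 was listed, and it was Cyp1a1. Vcan (chromosome 13, 89655312 to 89742509), which encodes versican, a chondroitin sulfate proteoglycan of the matrix that monocytes also make, had 1204, 1476 and 1248 normalized counts on chow and 112, 468 and 246 on HFD (log2 fold change -2.25, SE 0.46). The chow libraries were close together and the HFD libraries spread widely below them. Wfdc17 and Wfdc21, neighbouring genes on chromosome 11 for small whey acidic proteins of myeloid cells, were lower by -1.78 and -1.57 on the log2 scale. Wfdc17 had 440, 278 and 340 normalized counts on chow and 59.3, 100 and 149 on HFD, and Wfdc21 had 563, 602 and 414 normalized counts on chow and 141, 177 and 213 on HFD. All chow libraries lay above all HFD libraries for both.

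Another 7 protein-coding genes completed the 12 with the largest decreases. Zfp811, a zinc finger gene, had 362, 37.8 and 52.6 normalized counts on chow and 32.5, 30.6 and 28.5 on HFD, and its change of -2.3 was -0.56 without chow replicate 1. Xlr3b, an X-linked gene, had 471, 414 and 362 normalized counts on chow and 229, 13.3 and 48.6 on HFD, with the HFD values apart from each other. Ankrd63 had 1098, 216 and 330 normalized counts on chow and 211, 191 and 71.8 on HFD, and without chow replicate 1 its fold change was -0.79. Alppl2, a phosphatase gene, Nxph4, a neurexophilin gene, Shc3, an adaptor gene, and B020004J07Rik were lower by between -2.04 and -1.59 from chow means under 100 normalized counts, with B020004J07Rik at -0.95 without chow replicate 2.

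Under the same conditions the largest increase was that of Mfap4 (chromosome 11, 61485431 to 61488900), a microfibril-associated glycoprotein of elastic fibres in lung and vessel walls, with 52.8, 22.3 and 6.07 normalized counts on chow and 218, 231 and 331 on HFD (log2 fold change 3.25, SE 0.61). The HFD libraries lay close together and the chow libraries spread widely below them. Inmt (chromosome 6, 55170626 to 55175043), a methyltransferase that marks alveolar fibroblasts, had 131, 73.6 and 57.7 normalized counts on chow and 355, 284 and 565 on HFD (log2 fold change 2.19, SE 0.38). Fmod, the collagen-binding proteoglycan fibromodulin, had 11.3, 13.6 and 26.3 normalized counts on chow and 71.8, 69.4 and 97.2 on HFD (log2 fold change 2.22, SE 0.4). For both genes the lowest HFD library stood above the highest chow library.

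Genes of the mesothelium, the sheet of cells that covers the lung, made up much of the rest. Msln (chromosome 17, 25748614 to 25754327), which encodes mesothelin, had 49.1, 47.5 and 15.2 normalized counts on chow and 120, 268 and 218 on HFD (log2 fold change 2.43, SE 0.49). Upk3b (chromosome 5, 136038496 to 136046487), a uroplakin of mesothelial cells, had 76.4, 63.0 and 48.6 normalized counts on chow and 188, 324 and 263 on HFD (log2 fold change 2.04, SE 0.29). Upk1b had 18.9, 9.69 and 9.1 normalized counts on chow and 59.3, 56.1 and 87.7 on HFD (log2 fold change 2.41, SE 0.42). Each of these genes was higher in every HFD library than in any chow library, from chow means of no more than 62.7 normalized counts. Gpc3, a heparan sulfate proteoglycan, Muc16, a membrane mucin, and Lrrn4, a leucine-rich repeat protein, were higher by 2.05, 1.94 and 1.77 on the log2 scale, also without overlap.

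Bpifb1 (chromosome 2, 154190818 to 154220369), a secreted protein of airway goblet cells, had 164, 102 and 138 normalized counts on chow and 554, 229 and 581 on HFD (log2 fold change 1.76, SE 0.38). Pkhd1l1 (chromosome 15, 44457494 to 44601369), a large membrane protein gene, had 121, 106 and 87.0 normalized counts on chow and 292, 381 and 352 on HFD. Its change had the smallest p among the higher genes (log2 fold change 1.71, SE 0.22, edgeR adjusted p = 0.55), and the diets were far apart. Peg10, an imprinted gene derived from a retrotransposon, had 114, 184 and 116 normalized counts on chow and 828, 318 and 220 on HFD, and its change of 1.72 fell to 0.96 without HFD replicate 1.

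**Figure D1:**
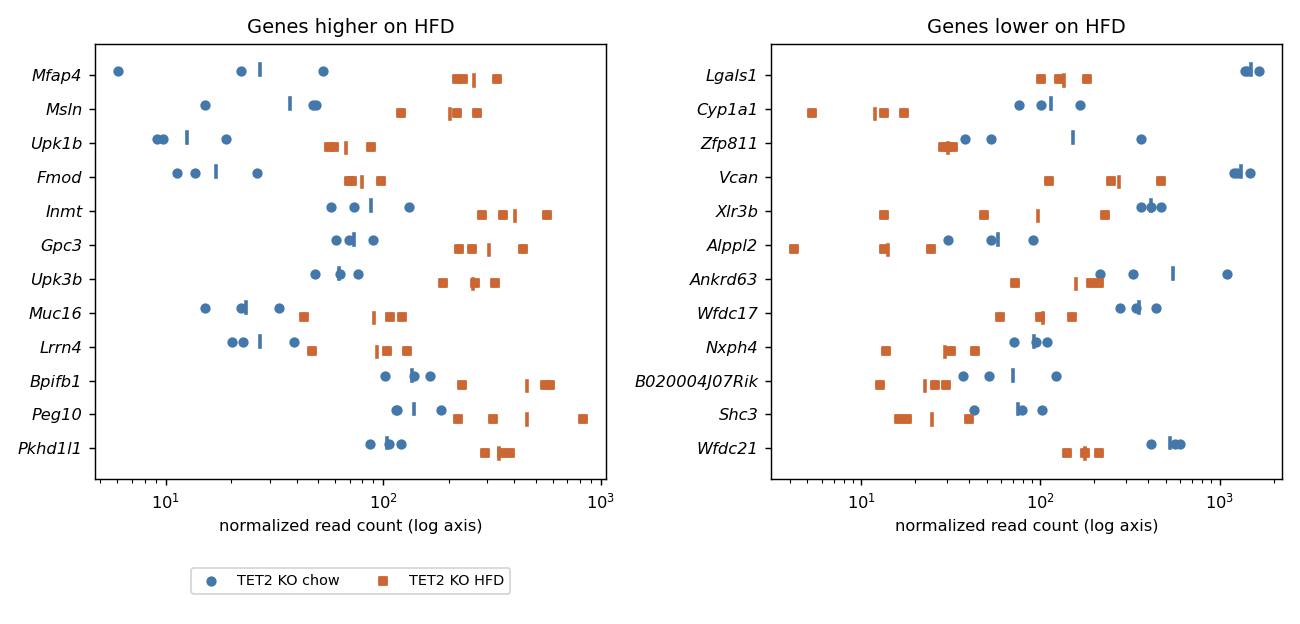
Normalized read counts (log axis) in each TET2 KO library of the 12 protein-coding genes with the largest increases (left) and the 12 with the largest decreases (right) among genes with a call, no overlap and a mean of at least 50 normalized counts on the higher diet. Circles are the 3 chow libraries, squares the 3 HFD libraries and short bars the group means. Lgals1 dropped from 1490 to 136 normalized counts on average, and Mfap4 was 27.1 on chow against 260 on HFD.

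The listed genes were sorted into 45 lists of cell type markers and pathway genes, which held 196 of them. These lists were chosen with earlier results of these data known, and 5 more were added after the data were seen. The share listed of each of the 45 lists is set beside 7.60% of all adjusted genes being listed, as a description only. Knowing earlier results when choosing the lists may have raised these shares. Listed members are counted over all 1628 genes, which include 145 that the authors left out of adjustment. Directions are set beside the median log2 fold change of -0.51 over all listed genes, with no test of a list. Counts of called and not overlapping members stand beside 1254 calls among all 1628 listed genes and 72.6% of them without overlap. The largest shares of the 45 lists were those of mesothelial (15 of 35), monocyte and macrophage (13 of 40), fibroblast (14 of 44) and interferon response genes (25 of 85). Of the alveolar macrophage list, an added one, 30 of 40 were listed. Shares of the 5 added lists are not set beside 7.60% at all, since these lists were made after the data were seen. At the other end 0 of 27 alveolar type 2 epithelial genes, 0 of 13 mitochondrially encoded respiratory chain genes, 1 of 66 ciliated cell genes, 4 of 104 cell cycle genes and 1 of 30 general endothelial genes were listed. Genes absent from the table did not reach the listing threshold, which does not show that they were unchanged.

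**Figure D2:**
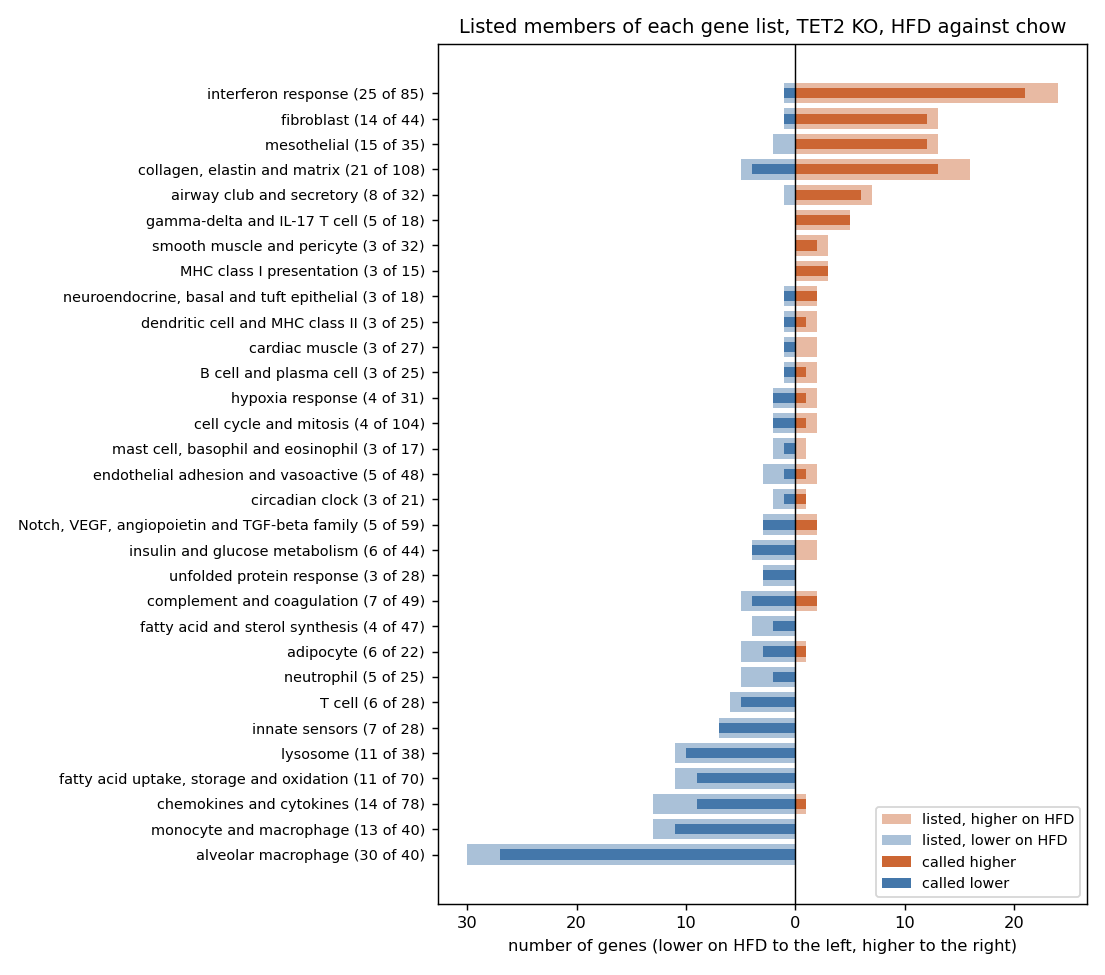
Number of genes of each list with at least 3 listed genes that were lower (left, blue) or higher (right, orange) on HFD among the listed genes of the TET2 KO comparison. Pale bars are listed genes and dark bars those with an edgeR p under 0.05; the numbers beside each name are listed genes of genes in the list. All 30 listed alveolar macrophage genes, of a list made after the data were seen, point left, and 24 of the 25 interferon genes point right.

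Most listed fibroblast genes were higher. Of 44 in the list, 14 were listed, 13 higher and 1 lower, and 12 of the higher genes and the lower one were called (median 1.24). The summed count of the 13 higher genes in HFD libraries was 211%, 204% and 285% of the chow mean, and 135%, 84.2% and 80.6% in the chow libraries themselves. These genes were chosen by their direction, which sets the direction of their sum. Over all 14 listed genes the sums were 44476, 33197 and 17235 normalized counts on chow and 10050, 22344 and 18046 on HFD. Most of these reads belonged to the lower gene. Col3a1, a fibrillar collagen chain, had 239, 225 and 214 normalized counts on chow and 282, 471 and 882 on HFD, without overlap (log2 fold change 1.27, SE 0.38). Dcn, the proteoglycan decorin, had 283, 299 and 395 normalized counts on chow and 481, 352 and 1010 on HFD and overlapped between the diets (log2 fold change 0.92, SE 0.38). Without HFD replicate 3 the fold change of Dcn was 0.36 and that of Col3a1 0.74. Bgn, which encodes biglycan, had 1197, 572 and 465 normalized counts on chow and 1631, 1676 and 993 on HFD (log2 fold change 0.94, SE 0.38), and its chow replicate 1 stood above HFD replicate 3. The lower gene was Fn1, which encodes fibronectin. It had 42203, 31781 and 15880 normalized counts on chow and 6502, 18918 and 13261 on HFD (log2 fold change -1.22, SE 0.45), and it also stands in the monocyte and macrophage list. Without chow replicate 2 or without chow replicate 3, 7 fibroblast genes were called higher.

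Of 35 mesothelial genes, 15 were listed, 13 higher and 2 lower, with 12 called, all higher, and a median of 1.68. The diets did not overlap for 10 of the 15, against 72.6% of all listed genes. Summed over the 13 higher genes, HFD libraries stood at 232%, 309% and 274% of the chow mean. These genes were chosen by their direction, which sets the direction of their sum. Over all 15 listed genes the sums were 17871, 14752 and 8945 normalized counts on chow and 7128, 13841 and 9343 on HFD, without a rise. Efemp1, a fibulin of the matrix, had 186, 149 and 121 normalized counts on chow and 228, 272 and 454 on HFD (log2 fold change 1.06, SE 0.31). Gpc3 had 69.8, 90.1 and 60.7 normalized counts on chow and 223, 256 and 436 on HFD (log2 fold change 2.05, SE 0.32), with every HFD library above every chow library for both genes. Cpe, a carboxypeptidase that processes peptide hormones, had 431, 312 and 204 normalized counts on chow and 1101, 1229 and 397 on HFD, with overlap (log2 fold change 1.52, SE 0.45), and Igfbp6, a binding protein of insulin-like growth factors, had 269, 298 and 205 normalized counts on chow and 292, 366 and 479 on HFD without a call. The pair below chow, Krt19 and Slpi, are genes of many epithelia and of myeloid cells and carried most of the list's reads. They had log2 fold changes of -0.85 and -0.83 and were not called. Dropping any 1 library left 10 to 13 of them called.

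Of 108 matrix genes, 21 were listed, 13 were called higher and 4 lower (median 0.97). Beside the fibroblast genes above, Ogn, a small proteoglycan, Ecm2, Col6a3, a collagen VI chain, and Loxl1, an enzyme that crosslinks elastin, were higher by between 0.84 and 1.7, and Col13a1, a membrane collagen, had 3.77, 2.91 and 0.0 normalized counts on chow and 19.1, 12.2 and 34.9 on HFD. These 5 genes were chosen after their values were seen. Adamts1, a protease that cuts versican, had 9053, 8796 and 3188 normalized counts on chow and 27693, 9954 and 8506 on HFD without a call, and Sparcl1 had 1476, 601 and 427 normalized counts on chow and 2273, 1005 and 1682 on HFD without a call. Vcan, Fn1, Adamts2 and Mmp23 were the 4 called decreases, the last pair chosen after its values were seen, and Mfap2, a microfibril gene, had 1483, 652 and 598 normalized counts on chow and 656, 512 and 388 on HFD without a call.

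Secretory airway genes were higher. Of 32, 8 were listed, 7 higher and 1 lower, and 6 were called, all higher (median 1.25). Bpifa1, an abundant secreted protein of the upper airways, had 878, 807 and 1382 normalized counts on chow and 3363, 862 and 2990 on HFD (log2 fold change 1.23, SE 0.47). Scgb3a1, a secretoglobin, had 314, 253 and 286 normalized counts on chow and 642, 445 and 954 on HFD (log2 fold change 1.26, SE 0.29). Muc5b, the gel-forming mucin of airway mucus, had 330, 143 and 145 normalized counts on chow and 524, 326 and 681 on HFD (log2 fold change 1.31, SE 0.41). HFD replicate 2 reached into the chow range for Bpifa1 and Muc5b, and Scgb3a1 did not overlap. HFD replicates 1 and 3 stood at 291% and 305% of the chow mean for the summed higher genes and replicate 2 at 120%, against 80.5% to 115% on chow. The choice of higher genes sets the direction of this sum. Over all 8 listed genes the sums were 2158, 1638 and 2271 normalized counts on chow and 5572, 2364 and 5776 on HFD. Chad, a cartilage matrix protein gene in this list, was higher by 0.74, and Krt15, a keratin of basal and club cells, had 192, 123 and 103 normalized counts on chow and 86.1, 103 and 33.8 on HFD without a call. Keratins of basal cells had few reads. Krt5 had 0.944, 0.969 and 4.05 normalized counts on chow and 40.2, 27.6 and 4.23 on HFD, and Krt14 was at 0 in all chow libraries and had 0.957, 8.17 and 4.23 normalized counts on HFD. The part of cell composition in these 4 lists was not tested.

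Interferon-response genes were higher. These genes are switched on when interferon binds its receptor, and their products restrict viruses, present antigen and recruit lymphocytes. Of 85 in the list, 25 were listed, 24 higher and 1 lower, and 21 higher genes and the lower one were called (median 0.73). The groups did not overlap for 19 of the 25, against 72.6% of all listed genes. Summed over the 24 higher genes, chow libraries lay between 97.1% and 103% of their mean, and HFD libraries stood at 191%, 152% and 131%. Every HFD library was thus above every chow library in this sum, to which Helz2 gave the most reads, while single members such as Ifit1 and Iigp1 varied widely among the chow libraries. The 24 genes were chosen by their direction, which sets the direction of the sum. Over all 25 listed genes the sums were 56719, 52840 and 54833 normalized counts on chow and 103701, 82783 and 71451 on HFD. The count of called higher genes was between 12 and 17 with a library left out, 12 without chow replicate 2, 13 without chow replicate 3 and 14 without either of HFD replicates 1 and 2. Macrophage genes were lower on HFD at the same time, and the part of cell composition in the interferon genes was not tested.

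Among the 6 members with the most reads, Helz2, a helicase that acts as a nuclear receptor coactivator, had 20151, 20791 and 24566 normalized counts on chow and 35776, 30362 and 26362 on HFD (log2 fold change 0.5, SE 0.18). Slfn5, a Schlafen gene, had 6101, 4705 and 2911 normalized counts on chow and 16322, 8921 and 5661 on HFD (log2 fold change 1.17, SE 0.41), and Irgm1, an immunity-related GTPase, had 2117, 2217 and 1994 normalized counts on chow and 7048, 3671 and 2600 on HFD (log2 fold change 1.07, SE 0.34). Gbp9, a guanylate-binding protein gene, was higher by 0.45 with no overlap. HFD replicate 1 was the highest library for Helz2, Slfn5 and Irgm1, and the diets overlapped for Slfn5. Without that library the fold change was 0.67 for Slfn5 and 0.57 for Irgm1. Ifnar1, a chain of the type I interferon receptor, had 5457, 4471 and 4526 normalized counts on chow and 5882, 5659 and 7077 on HFD, and Stat2, the signal transducer below it, had 4210, 3601 and 4018 normalized counts on chow and 5001, 5081 and 4535 on HFD. Neither passed the edgeR test, although the diets did not overlap.

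Isg15, Cxcl10, Ifit1, Ifit3, Mx2, Iigp1 and Slfn8 were chosen after their values were seen. Isg15 (chromosome 4, 156199424 to 156200818), a ubiquitin-like modifier, had 414, 414 and 438 normalized counts on chow and 493, 853 and 643 on HFD (log2 fold change 0.65, SE 0.23). Cxcl10 (chromosome 5, 92346638 to 92348889), the CXCR3 ligand that draws activated T cells, had 192, 184 and 145 normalized counts on chow and 341, 359 and 202 on HFD (log2 fold change 0.79, SE 0.27). Both were higher in all HFD libraries than in any chow library. Ifit1 (chromosome 19, 34640871 to 34650009), which binds viral RNA ends, had 426, 170 and 109 normalized counts on chow and 725, 812 and 554 on HFD (log2 fold change 1.57, SE 0.47). Ifit3 (chromosome 19, 34583531 to 34588731), its partner, had 365, 159 and 171 normalized counts on chow and 466, 709 and 635 on HFD (log2 fold change 1.38, SE 0.35). Every HFD library stood above every chow library for this pair too. Mx2, a dynamin-like GTPase against viruses, had 196, 159 and 164 normalized counts on chow and 526, 530 and 284 on HFD (log2 fold change 1.37, SE 0.28). Iigp1, a GTPase that interferon gamma induces, had 1354, 2010 and 764 normalized counts on chow and 9695, 3474 and 1563 on HFD (log2 fold change 1.84, SE 0.64), the largest fold change of the listed members with a wide spread. For Mx2 the diets did not overlap, while the lowest HFD library of Iigp1 lay below the highest chow library. The single lower gene was Slfn8, with 700, 248 and 1037 normalized counts on chow and 262, 348 and 281 on HFD (log2 fold change -1.15, SE 0.45), and its diets overlapped. Cxcl9, Cxcl11 and Ifitm1 were not listed.

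The promoters of 4 of these genes are shown for the motif of the interferon-activated factor complex. The sequences run 5′ to 3′ over the 250 bases before the transcription start, from RefSeq on GRCm38.p6, and capitals mark every match to GAAA, 2 bases of any kind and GAAA again, or to the reverse complement (TTTC, 2 bases and TTTC), the core of the interferon-stimulated response element; overlapping matches run together.
Ifit1, chr19:34640639-34640888, plus strand: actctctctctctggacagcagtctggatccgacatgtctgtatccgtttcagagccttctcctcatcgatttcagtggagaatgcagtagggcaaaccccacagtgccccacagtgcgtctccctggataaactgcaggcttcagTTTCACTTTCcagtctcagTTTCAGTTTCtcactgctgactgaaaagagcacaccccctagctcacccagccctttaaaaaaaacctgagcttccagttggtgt
Ifit3, chr19:34583279-34583528, plus strand: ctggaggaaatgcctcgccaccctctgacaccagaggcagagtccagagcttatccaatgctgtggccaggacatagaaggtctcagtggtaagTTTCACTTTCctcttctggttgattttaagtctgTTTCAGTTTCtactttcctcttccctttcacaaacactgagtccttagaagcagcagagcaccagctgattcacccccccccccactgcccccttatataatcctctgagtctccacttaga
Isg15, chr4:156200819-156201068, minus strand: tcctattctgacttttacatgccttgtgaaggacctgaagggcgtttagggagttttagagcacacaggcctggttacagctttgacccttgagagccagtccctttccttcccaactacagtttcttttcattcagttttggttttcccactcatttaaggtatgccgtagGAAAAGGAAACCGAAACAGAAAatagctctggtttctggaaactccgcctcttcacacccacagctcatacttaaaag
Cxcl10, chr5:92348890-92349139, minus strand: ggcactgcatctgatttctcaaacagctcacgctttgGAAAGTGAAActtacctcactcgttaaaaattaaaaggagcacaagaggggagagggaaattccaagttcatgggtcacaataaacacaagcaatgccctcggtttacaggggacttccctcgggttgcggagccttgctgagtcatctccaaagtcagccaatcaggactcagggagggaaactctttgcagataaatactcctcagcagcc
Ifit1 and Ifit3 hold 2 matches each, Isg15 3 overlapping matches within 78 bases of the start and Cxcl10 1 match that begins 213 bases before it. Of the 25 listed interferon genes, 19 had a RefSeq promoter in the set used, and 13 of these (68.4%) held a match on either strand, against 936 of 27025 genes (3.46%) over all promoters and 42 of 1036 listed genes (4.05%). Among members of the same list that were not listed for the diet, 16 of 44 (36.4%) held one. A match is a description of the sequence and not a measured binding site.

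Genes of antigen presentation by MHC class I, an added list, pointed the same way. H2-K1, a classical class I chain that presents peptides to CD8+ T cells, had 72158, 83378 and 90129 normalized counts on chow and 104629, 108767 and 108584 on HFD (log2 fold change 0.39, SE 0.16). H2-Q4 and H2-Q6, class I genes of the Q region, were higher by 0.57 and 0.54. All 3 listed members of 15 were called with no overlap, against 72.6% of all listed genes without overlap. Reads of near-identical class I genes may be shared among them. Of the MHC class II list, H2-Ab1 had 36707, 49806 and 54668 normalized counts on chow and 71225, 56140 and 62908 on HFD without a call, Itgae, an integrin of mucosal T cells and dendritic cells, was higher by 0.63, and Cd209a, a lectin of dendritic cells, was lower by -0.76.

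**Figure D3:**
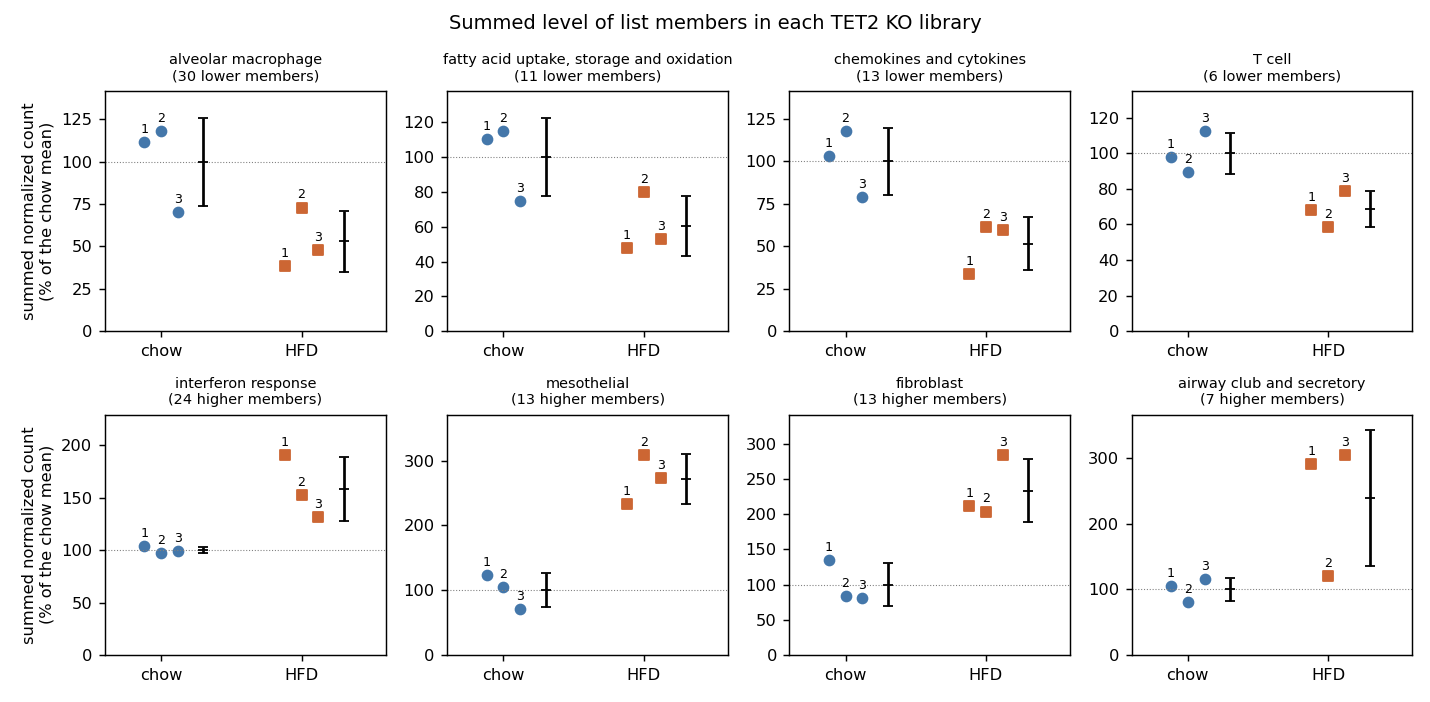
Summed normalized counts of the list members that moved in the list's main direction, as a percent of the chow mean, in each TET2 KO library. Members were chosen by direction, which sets the direction of each sum. Points are libraries with their replicate numbers, and bars at the side are mean ± SD of 3 libraries; all axes start at 0. Alveolar macrophage genes, of a list made after the data were seen, stood at 38.3% to 73.0% on HFD and 70.1% to 118% on chow. Interferon genes stood at 131% to 191% on HFD.

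Macrophage genes were lower. Of 40 monocyte and macrophage genes, 13 were listed, all lower, and 11 were called (median -0.97). Lyz2 (chromosome 10, 117277331 to 117282321) had 230133, 284247 and 203600 normalized counts on chow and 102837, 173459 and 161878 on HFD (log2 fold change -0.71, SE 0.25). Chil3 (chromosome 3, 106147554 to 106167564), a chitinase-like protein that alveolar macrophages secrete, had 180184, 175993 and 99760 normalized counts on chow and 48797, 100203 and 57328 on HFD (log2 fold change -1.14, SE 0.34). Mrc1, the mannose receptor CD206, had 25085, 27565 and 14620 normalized counts on chow and 8264, 16410 and 10964 on HFD (log2 fold change -0.92, SE 0.32). Lyz2 did not overlap between the diets, while for Chil3 and Mrc1 HFD replicate 2 lay above chow replicate 3. Mertk, a receptor for the uptake of dying cells, was lower by -0.72, and Siglecf, a lectin of alveolar macrophages and eosinophils, had 5723, 6341 and 4095 normalized counts on chow and 2304, 4637 and 3403 on HFD without a call.

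A list of 40 alveolar macrophage genes was made after the data were seen. Of these 30 were listed, all 30 lower, and 27 were called (median -0.86). Their summed counts were 514306, 544259 and 322991 on chow and 176156, 336218 and 221239 on HFD, so HFD replicate 2 lay between the chow libraries. The calls followed these libraries, with 30 called without chow replicate 3 or HFD replicate 2, 14 without chow replicate 1, 11 without HFD replicate 1, 10 without HFD replicate 3 and 7 without chow replicate 2. In the monocyte and macrophage list 4 genes were called without chow replicate 2, 5 without HFD replicate 1, 6 without chow replicate 1 or HFD replicate 3 and 12 without either of the others. Ctsd, a lysosomal protease, had 48344, 52228 and 31988 normalized counts on chow and 19462, 35923 and 23189 on HFD, and Abcg1, an exporter of cholesterol that surfactant clearance needs, had 27263, 29974 and 21800 normalized counts on chow and 13778, 22368 and 13146 on HFD. Of 38 lysosome genes, also added, 11 were listed, all lower, and 10 were called (median -0.75), 4 of them macrophage list members too.

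Myeloid chemokines and cytokines were lower with them. Of 78 chemokine, cytokine and receptor genes, 14 were listed, 13 lower and 1, Cxcl10, higher, and 9 were called lower (median -0.96). Ccl6, a chemokine of macrophages, had 45280, 52594 and 29756 normalized counts on chow and 11870, 25406 and 25987 on HFD (log2 fold change -1.01, SE 0.34). Ccl3, a chemokine of activated macrophages, had 4714, 8111 and 6738 normalized counts on chow and 1929, 3251 and 3344 on HFD (log2 fold change -1.2, SE 0.28). Tnf had 4545, 4232 and 4649 normalized counts on chow and 2107, 4030 and 1866 on HFD (log2 fold change -0.75, SE 0.29). None of these overlapped between the diets. Ccl2, which calls CCR2+ monocytes to tissue and was chosen after its values were seen, had 940, 1046 and 1063 normalized counts on chow and 387, 530 and 504 on HFD (log2 fold change -1.1, SE 0.19), with narrow spread on both diets. Ccr2, its receptor, Ccr1 and Cx3cl1, a membrane-bound chemokine of endothelium, had log2 fold changes of -0.69, -0.57 and -0.65 without a call. The count of lower calls was 5 without chow replicate 1 or chow replicate 2. Of the 14 listed genes 3 also stand in a macrophage list.

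Receptors of innate immunity were lower too. Of 28 in an added list 7 were listed, all lower and all called (median -0.87). Tlr4, the receptor for bacterial endotoxin, had 2069, 2128 and 1427 normalized counts on chow and 945, 1231 and 1074 on HFD (log2 fold change -0.79, SE 0.21). Mavs, the adaptor of cytosolic RNA sensing, was lower by -0.61, Clec4n, the fungal receptor dectin-2, by -1.01 and Fpr1, a formyl peptide receptor, by -1.0. Of 25 neutrophil genes 5 were listed, all lower. Mmp8, a collagenase of neutrophil granules, had 833, 1401 and 874 normalized counts on chow and 199, 382 and 652 on HFD (log2 fold change -1.33, SE 0.42). Wfdc21, described above, was the other called gene, and Stfa2l1 and Mpo were at under 300 normalized counts in every library without a call.

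Genes of lipid handling were lower on the diet rich in fat. Of 70 genes of fatty acid uptake, storage and oxidation, 11 were listed, all lower, and 9 were called (median -0.74). Lpl, the lipoprotein lipase that frees fatty acids from circulating triglyceride, had 34620, 38494 and 24130 normalized counts on chow and 14631, 27093 and 17303 on HFD (log2 fold change -0.72, SE 0.28). Cidec, a lipid droplet protein, had 5831, 5474 and 3044 normalized counts on chow and 1924, 3916 and 2067 on HFD (log2 fold change -0.86, SE 0.34). Angptl4, an inhibitor of lipoprotein lipase, was lower by -0.86. HFD replicate 2 stood above chow replicate 3 for all 3 genes, as it did for Chil3 and Mrc1. Summed over the list, HFD libraries stood at 47.8%, 80.1% and 53.0% of the chow mean, and chow replicate 3 at 74.5%. Between 4 and 11 genes were called with a library left out (4 without chow replicate 2, 5 without chow replicate 1, HFD replicate 1 or HFD replicate 3), and 5 with TMM factors of the listed genes. Of the 11 listed genes 3 are also in a macrophage list, and the part of macrophage content in the list was not tested.

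Lipid genes with no overlap between the diets included Mgll, the lipase that completes the breakdown of triglyceride, with 4164, 4828 and 3287 normalized counts on chow and 2706, 2578 and 2085 on HFD (log2 fold change -0.74, SE 0.19). Chosen after their values were seen, Ucp3 (chromosome 7, 100472990 to 100486432), a mitochondrial carrier linked to fatty acid oxidation, had 826, 774 and 677 normalized counts on chow and 166, 297 and 427 on HFD (log2 fold change -1.36, SE 0.33). Cpt2, which returns fatty acids to their CoA form inside mitochondria, had 619, 560 and 418 normalized counts on chow and 303, 304 and 336 on HFD (log2 fold change -0.76, SE 0.21). Ppargc1b, a coactivator of mitochondrial genes, had 455, 429 and 485 normalized counts on chow and 241, 299 and 294 on HFD (log2 fold change -0.71, SE 0.18). Chow libraries were close together for Ucp3 and Ppargc1b, and all 3 HFD libraries lay below them. Ech1, a peroxisomal and mitochondrial oxidation enzyme, was lower by -0.42, and Acaa1b was not called.

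Of 47 genes of fatty acid and sterol synthesis, 4 were listed, all lower. Abcg1, which stands in this list as well, and Fdft1, the enzyme that makes squalene, were called lower by -0.68 and -0.46. Msmo1 and Elovl6 were not called, and 0 of the 4 were called with TMM factors of the listed genes. Of 22 adipocyte genes 6 were listed, 4 called and 3 of those lower, 1 higher. Lpl, Cidec and Acvr1c, a receptor of the TGF-beta family, were lower, and Slc36a2 was higher from 1.89, 2.91 and 3.03 normalized counts on chow to 8.61, 4.08 and 22.2 on HFD. Acvr1c was at -0.98 without chow replicate 2 and Slc36a2 at 1.26 without HFD replicate 3. Adipor2, an adiponectin receptor, had 17189, 19225 and 13237 normalized counts on chow and 10418, 14732 and 10531 on HFD without a call, and the defining adipocyte hormones were not listed.

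Of 44 genes of insulin and glucose metabolism, 6 were listed and 4 called, all lower. Igf1, insulin-like growth factor 1, which lung macrophages and fibroblasts make, had 376, 358 and 280 normalized counts on chow and 139, 155 and 132 on HFD (log2 fold change -1.25, SE 0.2). The libraries of each diet were close together, and the diets did not overlap. Gys1, the glycogen synthase of most tissues, had 772, 826 and 764 normalized counts on chow and 492, 604 and 595 on HFD (log2 fold change -0.48, SE 0.17), and Gapdh, of glycolysis, and Arrdc4, an arrestin that glucose induces, were lower by -0.41 and -0.48. Sesn1, a stress-induced sestrin, had 2377, 3007 and 2581 normalized counts on chow and 3362, 2242 and 10102 on HFD without a call, its high value being HFD replicate 3 alone.

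Smaller pathway lists gave few genes. In the unfolded protein response, Chac1, a glutathione-degrading enzyme of the stress response, had 131, 258 and 329 normalized counts on chow and 135, 73.5 and 79.2 on HFD (log2 fold change -1.32, SE 0.39), Sdf2l1 was lower by -0.71 and Pdia4, a disulfide isomerase, by -0.42. All 3 listed of 28 were called lower. Of 21 clock genes, Bhlhe41, a repressor of clock genes that alveolar macrophages also use, was lower by -1.0 and Cry2 higher by 0.43, while Per2 was not called. Of the hypoxia list, Mxi1 was higher by 0.5 (0.3 without HFD replicate 2), Stc2 lower by -0.68, and Adm, the vasodilator adrenomedullin, was not called. Ephx1 and Sod3, the listed members of the NRF2 antioxidant list, were higher by 0.38 and 1.23. Mt1, a metallothionein that glucocorticoids induce, was lower by -0.72, and Egr2 and Hspe1, of 41 genes of immediate early response and dissociation stress, by -0.79 and -0.43. Of the cell cycle list Cenpa, a centromeric histone, was higher by 0.64, and Anln and Dlgap5 were lower by -0.82 and -1.19, the latter by -0.66 without chow replicate 2.

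T cell genes were lower by modest amounts. Of 28, 6 were listed, all lower, and 5 were called (median -0.6). None of the 6 overlapped between diets, against 72.6% of all listed genes without overlap. Tcf7, a transcription factor of naive and memory T cells, had 10392, 8372 and 13158 normalized counts on chow and 7228, 6068 and 7304 on HFD (log2 fold change -0.63, SE 0.2). Cd8a, a chain of the CD8 coreceptor, had 2021, 1638 and 2576 normalized counts on chow and 1303, 1129 and 1621 on HFD (log2 fold change -0.62, SE 0.22), and Cd8b1, its partner chain, was lower by -0.59. Trac, the constant region of the T cell receptor alpha chain, had 1421, 1097 and 1141 normalized counts on chow and 810, 621 and 757 on HFD (log2 fold change -0.74, SE 0.19). Il7r was lower by -0.55 and Cd2 was not called. With TMM factors of the listed genes 0 of these genes were called, while DESeq2 called all 6, 2 were without chow replicate 3 or HFD replicate 2, and 3 were without HFD replicate 1. Of the cytotoxic list, Gzma, a granzyme, had 629, 505 and 1081 normalized counts on chow and 491, 2143 and 2207 on HFD without a call, and Cma1 was not called either.

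Genes of gamma-delta and IL-17-producing T cells moved the other way. In an added list of 18, 5 were listed, all higher, called and without overlap (median 1.15), against 72.6% of all listed genes without overlap. Il17a (chromosome 1, 20730905 to 20734496), a cytokine of barrier tissues, had 36.8, 29.1 and 79.9 normalized counts on chow and 141, 224 and 83.5 on HFD (log2 fold change 1.62, SE 0.49). Trdc, the constant region of the delta chain, had 263, 236 and 381 normalized counts on chow and 443, 522 and 410 on HFD (log2 fold change 0.64, SE 0.24). Cd163l1, a scavenger receptor of these cells, had 641, 317 and 627 normalized counts on chow and 971, 1721 and 815 on HFD (log2 fold change 1.15, SE 0.37), and the receptor segments Tcrg-V6 and Trdv4 were higher by 2.49 and 1.03 from chow means of 5.93 and 33.2 normalized counts. HFD replicate 2 was the highest library for Il17a, Trdc and Cd163l1, and without it Cd163l1 was higher by 0.76. Between 2 and 5 of the 5 were called with a library left out, 2 without HFD replicate 2 and 3 without chow replicate 2. Of the alpha chain, 7 listed variable segments were lower at very few reads. Trav14n-3, the one with the highest chow mean, had 8.36 normalized counts there on average and 0.957, 1.02 and 0.0 on HFD, and no fold is given for these segments.

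Antibody genes split by segment. All 4 listed constant region genes were lower. Ighg2b, an IgG heavy chain, had 510, 686 and 505 normalized counts on chow and 215, 153 and 305 on HFD (log2 fold change -1.34, SE 0.28), Ighg1 had 128, 310 and 318 normalized counts on chow and 105, 30.6 and 76.1 on HFD (log2 fold change -1.83, SE 0.5), and Ighg2c had 1117, 930 and 149 normalized counts on chow and 259, 101 and 141 on HFD (log2 fold change -2.13, SE 0.69). Ighg1 and Ighg2b did not overlap between the diets, and 1 HFD library of Ighg2c reached into the chow range. Igha, the IgA heavy chain, had 825, 710 and 909 normalized counts on chow and 614, 356 and 670 on HFD without a call. Jchain, which joins IgA and IgM and marks plasma cells, had 813, 616 and 630 normalized counts on chow and 514, 107 and 226 on HFD (log2 fold change -1.28, SE 0.49).

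All 8 listed joining segments were higher and called, with log2 fold changes of 0.74 to 1.05. None of them overlapped between the diets, against 72.6% of all listed genes without overlap. Igkj5 had 423, 484 and 384 normalized counts on chow and 943, 669 and 802 on HFD (log2 fold change 0.9, SE 0.2). Of 17 listed variable segments 15 were higher, 8 of them called, and 2 were called lower. One of the latter was Ighv12-3 (chromosome 12, 114366521 to 114366954), with 140, 49.4 and 95.1 normalized counts on chow and 35.4, 27.6 and 15.8 on HFD (log2 fold change -1.84, SE 0.47). Blk, a B cell kinase, was higher by 0.52, and Ebf1, a B cell transcription factor, had 2812, 3492 and 4714 normalized counts on chow and 5539, 4652 and 5268 on HFD without a call. Segments of these families resemble each other and their reads may be shared. These segments other than Ighv12-3 and Ighg1 were chosen after their values were seen.

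**Figure D4:**
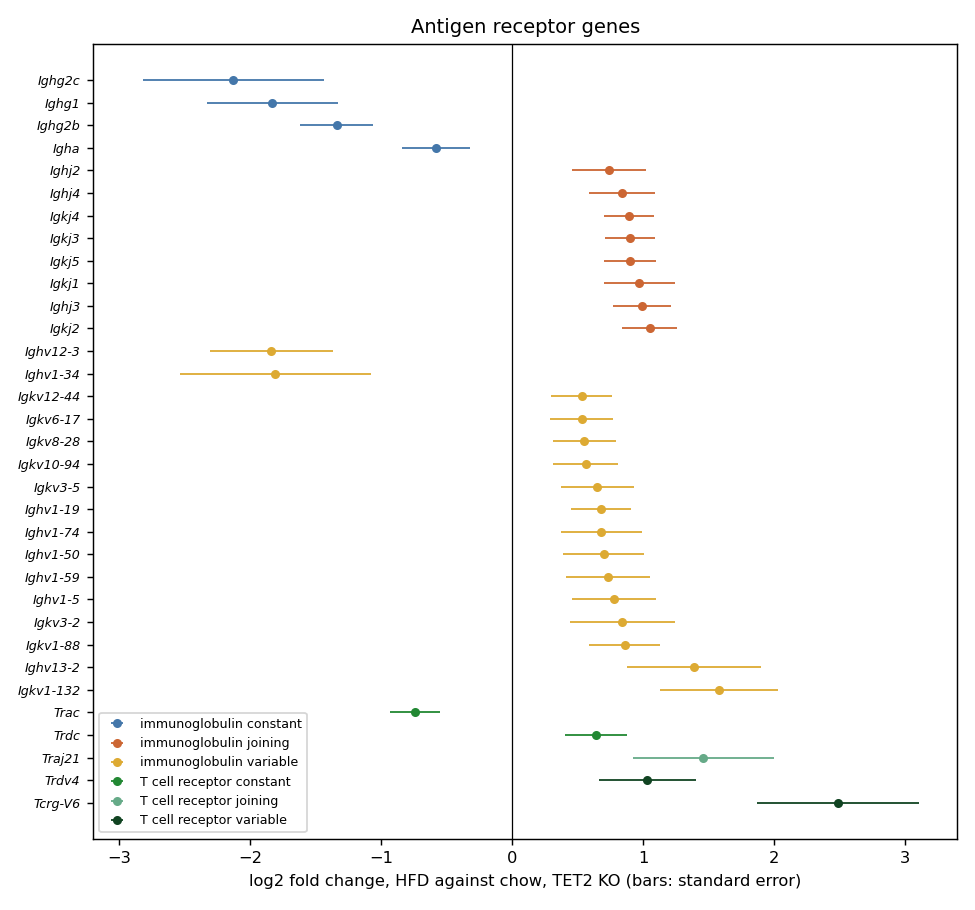
Log2 fold change of HFD against chow in TET2 KO for 33 listed immunoglobulin and T cell receptor genes, by kind of segment. Bars are standard errors derived from the F statistic of the fit. The 8 genes with 3 or fewer counts over the libraries of 1 diet are left out. Constant regions of IgG lie between -2.13 and -1.34 and the joining segments between 0.74 and 1.05.

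Few endothelial genes were listed. Emcn (chromosome 3, 137341067 to 137432185), the endothelial sialomucin endomucin, had 582, 564 and 424 normalized counts on chow and 1572, 748 and 772 on HFD (log2 fold change 0.98, SE 0.32), with HFD replicate 1 far above the others, which is also the library with the most Cdh5. Scn7a, a sodium channel of capillary cells, had 2838, 4432 and 3276 normalized counts on chow and 13421, 3998 and 6700 on HFD (log2 fold change 1.19, SE 0.41) and its highest value in the same library. Without HFD replicate 1 the fold change was 0.54 for Emcn and 0.61 for Scn7a. Nckap5 was not called. Of arterial genes, Mgp, an inhibitor of calcification, had 413, 332 and 314 normalized counts on chow and 625, 903 and 804 on HFD (log2 fold change 1.14, SE 0.21), and Htra1, a secreted protease, was higher by 0.9. Of venous genes, Vcam1, an adhesion molecule for leukocytes, had 508, 301 and 207 normalized counts on chow and 1140, 855 and 331 on HFD (log2 fold change 1.19, SE 0.48), with overlap, and Bst1 was lower by -1.03. Prox1, the factor that defines lymphatic endothelium, had 365, 373 and 289 normalized counts on chow and 265, 242 and 156 on HFD (log2 fold change -0.63, SE 0.25), and Nts, a lymphatic neuropeptide gene, was higher from a chow mean of 5.81 normalized counts. Fcgr3, an antibody receptor in the capillary list that macrophages also carry, was lower by -0.78 (-0.49 without HFD replicate 1).

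Of 48 genes of endothelial adhesion and vasoactive function 5 were listed. Bdkrb2, the bradykinin B2 receptor, had 347, 174 and 143 normalized counts on chow and 99.5, 74.5 and 91.9 on HFD (log2 fold change -1.32, SE 0.36, or -0.84 without chow replicate 1), and Ptgs2, a prostaglandin synthase, was not called. Of the Notch, VEGF, angiopoietin and TGF-beta list all 5 listed genes were called. Angpt1, the ligand of TIE2 that stabilizes vessels, and Id2 were higher by 0.74 and 0.64, and by 0.46 and 0.34 without HFD replicate 3. Pgf, placental growth factor, Nrp2, a VEGF coreceptor of lymphatic and venous cells, and Id1 were lower by -1.12, -0.78 and -0.72. Id1 had 5018, 2510 and 2673 normalized counts on chow and 2500, 1959 and 1733 on HFD, with chow replicate 1 far above the rest, and its fold change was -0.33 without that library. Of these 3 decreases 1 was called without chow replicate 1, without HFD replicate 2 or with TMM factors of the listed genes. Coagulation and complement divided, with F7, Pros1, F13a1 and F2rl1 lower by between -1.07 and -0.54, Serping1, the inhibitor of the first complement component, higher by 1.19 (0.72 without HFD replicate 3), and C5ar2 not called.

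None of the 12 glycosaminoglycan and sialyl genes of the study, and none of the Tet and Dnmt genes, was listed. From their list Idh1, which makes the 2-oxoglutarate that TET enzymes use, had 3835, 4282 and 2979 normalized counts on chow and 1860, 2768 and 2269 on HFD (log2 fold change -0.69, SE 0.21). Other cell types gave 1 to 3 listed genes each. Pdgfrb, Itga8 and Lgr6, of pericytes and smooth muscle, had log2 fold changes of 0.75, 1.05 and 2.12, with calls for Itga8 and Lgr6. Syp, a synaptic vesicle protein of neuroendocrine cells, was lower by -1.05, Akap5, in the alveolar type 1 list, by -0.77, Clec1b, a platelet receptor, by -0.69, Mag, of myelinating cells, by -0.67 and Mcpt8, a basophil protease, by -1.79. Hamp, the iron hormone hepcidin in the cardiac list, had 5.66, 33.9 and 30.3 normalized counts on chow and 6.7, 4.08 and 1.06 on HFD (log2 fold change -2.5, SE 0.82), and Myl4, Ryr2 and Dnah2 were not called.

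Genes annotated with a class other than protein coding made up 393 of the 1628 listed genes. Among them were 86 lincRNAs (31 higher and 55 lower) and 71 antisense transcripts (46 higher and 25 lower). The 393 also include the immunoglobulin and T cell receptor segments described above, which are annotated apart from protein-coding genes although they encode parts of proteins. Miat, a long non-coding RNA, averaged 36.1 normalized counts on chow and 116 on HFD (log2 fold change 1.68, SE 0.48), with every HFD library above every chow library. Gm37800 and B930036N10Rik were lower by -1.76 and -1.72. Reads of antisense genes and their partners cannot be told apart where counting ignored the strand, and whether it did is not given in the sources used here.

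WT mice on the same diets share no library with the TET2 KO comparison. Their table lists 30.2% of its adjusted genes. Of the genes listed in TET2 KO, 611 were also listed in WT, 37.5% of the KO genes and 8.34% of the WT genes. The direction was the same for 430 of them (70.4%), 321 lower and 109 higher on HFD in both genotypes, while 91 were lower in KO and higher in WT and 90 higher in KO and lower in WT. In WT libraries endothelial markers differed between the diets as well, with Cdh5 at 56.1, 47.8 and 118 FPKM on chow and 290, 222 and 149 FPKM on HFD, and their part in the overlap was not tested.

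By list, all 17 shared interferon genes were higher in both genotypes, and all 8 shared fibroblast genes had the same sign. All 24 shared genes of the alveolar macrophage list, which was added after the data were seen, were lower in both. Other lists were mixed, with 8 same and 2 opposite in the monocyte and macrophage list, 8 and 2 in the matrix list, 3 and 2 among chemokines, 2 and 2 in complement and coagulation, 2 and 1 among mesothelial genes and 1 and 1 among airway genes, while the 1 shared T cell gene was opposite. The Notch, VEGF, angiopoietin and TGF-beta list gave 3 and 1, and the added lysosome and innate sensor lists 6 and 1 and 3 and 1. The 2 shared joining segments of antibody genes were opposite, lower on HFD in WT. Ifit3 was higher by 1.38 in KO and 2.67 in WT, and Ifit1 by 1.57 and 2.15. Mfap4 was higher by 3.25 and 2.64 and Cyp1a1 lower by -3.24 and -4.16, on the log2 scale of each genotype's own fit. Chil3 was lower by -1.14 and -1.07, Igf1 by -1.25 and -1.42, and Il17a was higher by 1.62 and 1.63. Of the 15 mesothelial genes 3 were shared and of the 8 airway genes 2, so that most of these had no WT diet call.

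**Figure D5:**
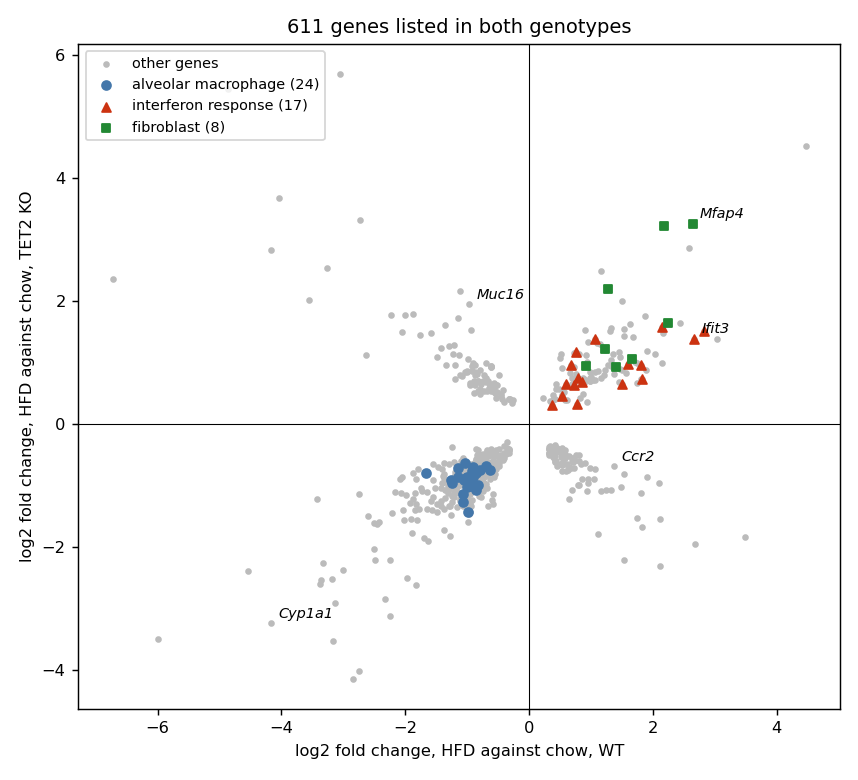
Log2 fold change of HFD against chow in WT (x axis) and in TET2 KO (y axis) for the 611 genes listed in both, which share no library. Points are genes; the empty bands along the axes come from the listing threshold. The 24 alveolar macrophage genes, of a list made after the data were seen, lie at the lower left and the 17 interferon genes at the upper right.

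The difference of the diet effect between genotypes was fitted in edgeR with an interaction term over all 12 libraries, for the 635 listed genes whose counts are held in each. An adjusted p under 0.05 was reached by 197 genes (31.0%), and 213 had an unadjusted p under 0.05. The listing decides much of this, since 177 of the 197 are genes that both tables list in opposite directions, out of 181 such genes, so these p-values describe genes selected on the same contrasts. With a library left out the count was 1 without WT HFD replicate 1, although 205 unadjusted p-values were under 0.05 in that fit, and between 65 and 174 without any of the other 11. It was 65 without WT chow replicate 1, 72 without KO chow replicate 1, 93 without KO HFD replicate 1, 120 without WT chow replicate 2, and 130 without KO HFD replicate 2 or WT HFD replicate 3.

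Ccr2 and F13a1, genes of monocytes, were among those with such a p. They are the 2 genes of the monocyte and macrophage list with opposite directions in the genotypes. The other 8 shared genes of that list were lower on HFD in both. Ccr2 stood at 2602, 3509 and 3321 normalized counts in KO chow and 990, 2376 and 2493 in KO HFD, against 1678, 1242 and 1925 in WT chow and 3127, 4568 and 4927 in WT HFD. HFD libraries lay below all chow libraries in KO, without a call of the KO diet effect, and above all chow libraries in WT (difference -2.07, SE 0.46, adjusted p = 0.0211). F13a1, a coagulation factor of monocytes and macrophages, differed by -1.79 (SE 0.47, adjusted p = 0.023) and Id1, a target of BMP signalling, by -1.71 (SE 0.46, adjusted p = 0.0234). In the other direction Peg10 stood at 114, 184 and 116 in KO chow, 828, 318 and 220 in KO HFD, 306, 345 and 320 in WT chow and 138, 136 and 167 in WT HFD (difference 2.86, SE 0.57, adjusted p = 0.0211). Msln stood at 131, 429 and 24.7 in WT chow and 184, 58.2 and 81.4 in WT HFD, with overlapping WT diets (difference 3.28, SE 1.12, adjusted p = 0.0431).

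The comparison of TET2 KO with WT on chow shares the KO chow libraries, so its values are set beside the diet values without a test. Upk3b was higher by 2.04 on HFD in KO and lower by -1.88 in KO than in WT on chow. The same pair of values was 2.05 and -1.63 for Gpc3, 1.76 and -1.59 for Bpifb1, 1.26 and -1.36 for Scgb3a1 and 1.27 and -1.18 for Col3a1. For Trac it was -0.74 and 0.79 and for Tcf7 -0.63 and 0.82. A chow library of KO that is low or high for a gene enters both values of a pair.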

How the data were processed

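RNA of CD31-selected lung cells was sequenced from 12 mice. Per the labels and the study's methods, the authors aligned paired-end reads to mm10 with HISAT2 and counted them per gene with featureCounts, with versions not given in the sources used here. The authors deposited raw counts, a normalized signal (the count divided by DESeq2's size factor), FPKM, gene length and p-values for genes with an unadjusted p-value under 0.05. Their fold changes and p-values were not used beyond the listing threshold and the number of genes adjusted (19511). The authors left 145 of the listed genes out of adjustment, and these have no adjusted p here.

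Counts were fitted with edgeR 4.0.16 (glmQLFit, glmQLFTest), two-sided, 3 libraries against 3, scaled by the size factors that the deposited columns imply. Only genes that already passed the authors' threshold entered, so p-values are descriptions. An exact permutation test of 3 against 3 cannot give a p below 0.1. An unadjusted p under 0.05 made a call. DESeq2 1.42.0, limma-trend 3.58.1 on log2(normalized count + 1), TMM, library totals, a minimum mean of 10, a replicate block and leaving out each library were the alternatives. The fits were tested on simulated counts in which most genes were unchanged. Those simulations do not cover genes selected on the same contrast, as the listed genes were. Same-numbered libraries did not deviate together.

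Members and lists were chosen with earlier results of these data known, and 5 lists after the data were seen. Named genes were those with the largest fold change among called genes with a mean of at least 50 and no overlap. They were 12 higher and 12 lower protein-coding genes and 5 genes of other annotated classes, Ighv12-3 and Ighg1 among these 5. Up to 6 listed members of each list were also named, by mean count, and others are marked in the text.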

Additional observations from a re-analysis of the deposited data

Results flagged for a closer look

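For 16 of the genes named, the fitted diet effect in TET2 KO and that in WT lay apart, with an adjusted p under 0.05 for edgeR's interaction term over 635 genes. Most of those genes entered because both diet tables list them, and 177 of the 197 genes with such a p are among the 181 listed in opposite directions, so the p describes genes selected for it and tests no difference. Without WT HFD replicate 1 the count was 1. On the log2 scale, with the KO diet effect minus the WT diet effect, it was more positive in KO for Msln (3.28), Muc16 (2.91), Fmod (2.87), Peg10 (2.86), Bpifa1 (2.67) and Pkhd1l1 (2.01). It was more negative in KO for Wfdc17 (-3.59), Ighv12-3 (-3.07), Ankrd63 (-2.91), Mfap2 (-2.35), Ccr2 (-2.07), F13a1 (-1.79), Id1 (-1.71), F2rl1 (-1.53), Cd8a (-1.04) and P2rx7 (-0.94).

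With each of the 12 libraries left out in turn, Ccr2, Peg10, Pkhd1l1, Fmod and Muc16 kept an adjusted p under 0.05 in 11 fits and Mfap2 and F13a1 in 10. Ankrd63 and Id1 kept it in 9, F2rl1 in 8, Wfdc17 in 6, Cd8a in 5, Bpifa1 and P2rx7 in 4, Ighv12-3 in 2 and Msln in 1. Wfdc17 and Ighv12-3 were high in WT HFD replicate 3 alone (1325 and 307 normalized counts, against no more than 160 and 36 in the other WT HFD libraries).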

How the results depend on the processing

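The count of 1254 called genes was 1462 with DESeq2, 1234 with limma-trend, 1262 with library totals, 1118 with a minimum mean of 10 and 990 with TMM factors, 1 at an adjusted p under 0.05 and 524 with a log2 fold change over 1. None of the 177 genes named by the rule changed sign under any alternative, but the call of 87 changed under at least 1 alternative other than leaving out a library, and 40 lost it with TMM factors. TMM factors brought the lower calls of T cell genes from 5 to 0 and of fatty acid genes from 9 to 5. These factors rest on listed genes alone, where lower genes prevail.

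With each library left out in turn, called genes ranged from 599 to 1062, those over a log2 fold change of 1 from 353 to 554 and list members from 88 to 143. Calls ranged from 4 to 12 for monocyte and macrophage, 2 to 6 for T cell, 5 to 6 for airway, 10 to 13 for mesothelial, 7 to 11 for fibroblast, 12 to 17 for interferon, 4 to 11 for fatty acid and 5 to 10 for chemokine genes, and interaction calls from 1 to 174.

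Libraries share only a replicate number. Deviations of same-numbered KO libraries from their group means correlated at 0, 0.15 and -0.02 over 1480 genes, and not every library correlated best with its own number. With the replicate number as a block 1158 genes were called, 0 after adjustment (Lgals1 at an edgeR adjusted p of 0.0506), and the interaction gave 149 in place of 197. At 38.1 to 42.7 M reads, genes under about 10 normalized counts rest on few reads.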
